A study of Mus musculus with 8 samples.

Results

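Medullary thymic epithelial cells (mTECs) from Mcl1 knock-out mice were compared with mTECs from wild-type mice. The comparison was defined by the sample titles and used 3 of the 8 libraries of the series: 1 KO library and 2 WT libraries. Both genotypes were on the C57BL/6 strain, and every library was made from polyA RNA of thymic epithelium. RNA came from snap-frozen cell pellets, and cDNA was amplified with a low-input kit before sequencing in read pairs. The labels give neither the Cre driver or deleted part of Mcl1, nor the age of the animals, nor whether animals were pooled. The design text calls the libraries biological replicates and states 1 for the KO mTECs and 2 for the WT mTECs. The cortical libraries of the series entered no value below except where a fit to all 8 libraries is named.

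MCL-1 is a pro-survival member of the BCL-2 family. It binds pro-death members of the family at the mitochondrial outer membrane and so restrains BAX and BAK, whose activation releases cytochrome c and starts the caspase cascade. mTECs present self antigens to developing T cells: mature mTECs express the transcriptional regulator Aire and transcribe many genes otherwise restricted to other tissues, and small mTEC subsets carry programmes resembling airway, muscle, endocrine or tuft cells.

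The WT libraries held 19171953 and 18671044 counts and the KO library 11516780. A count above 0 was present for 22367 and 22708 genes in the WT libraries and 20303 genes in the KO library; after thinning the WT libraries to the KO total, the WT numbers were 21880 and 22338. Levels are given as scaled CPM, the CPM of a library after its TMM factor for composition (CPM is the count as a share of the library's total), always in the order WT 1, WT 2, KO. edgeR's quasi-likelihood test on these 3 libraries tested 17608 genes. At a Benjamini-Hochberg adjusted p under 0.05 it called 822 of them (4.67%): 380 (2.16%) higher and 442 (2.51%) lower in the KO library. This fit has 1 residual degree of freedom and assumes that the lone KO library varies like the WT libraries. A fit to all 8 libraries, with 1 mean per group and 4 residual degrees of freedom, called 0 of these genes: its lowest adjusted p was 0.0807, and 1434 genes had an unadjusted p under 0.05, against 4075 in the 3-library fit. DESeq2 on the 3 libraries called 226 higher and 215 lower. Every statement below that a gene rose or fell is therefore a call of the 3-library fit that the 8-library fit did not share. An exact permutation of 1 library against 2 cannot give a p below 0.333.

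The distance of the KO library from the nearer WT library was used as a description beside the test. The KO library lay at least 2-fold above both WT libraries for 504 genes (2.86%) and at least 2-fold below both for 879 genes (4.99%), with 0.5 CPM added. With WT 1 left out the numbers were 852 and 1440, and with WT 2 left out 1046 and 1203. The KO library lay above both by any distance for 39.8% of genes and below both for 40.5%. The WT libraries themselves were at least 2-fold apart for 667 genes, or 3.79% of those tested. The median absolute log2 difference was 0.23 between the WT libraries and 0.35 between the KO library and the WT mean. In bulk libraries, fewer cells of a type and less RNA per cell cannot be told apart.

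**Figure D1:**
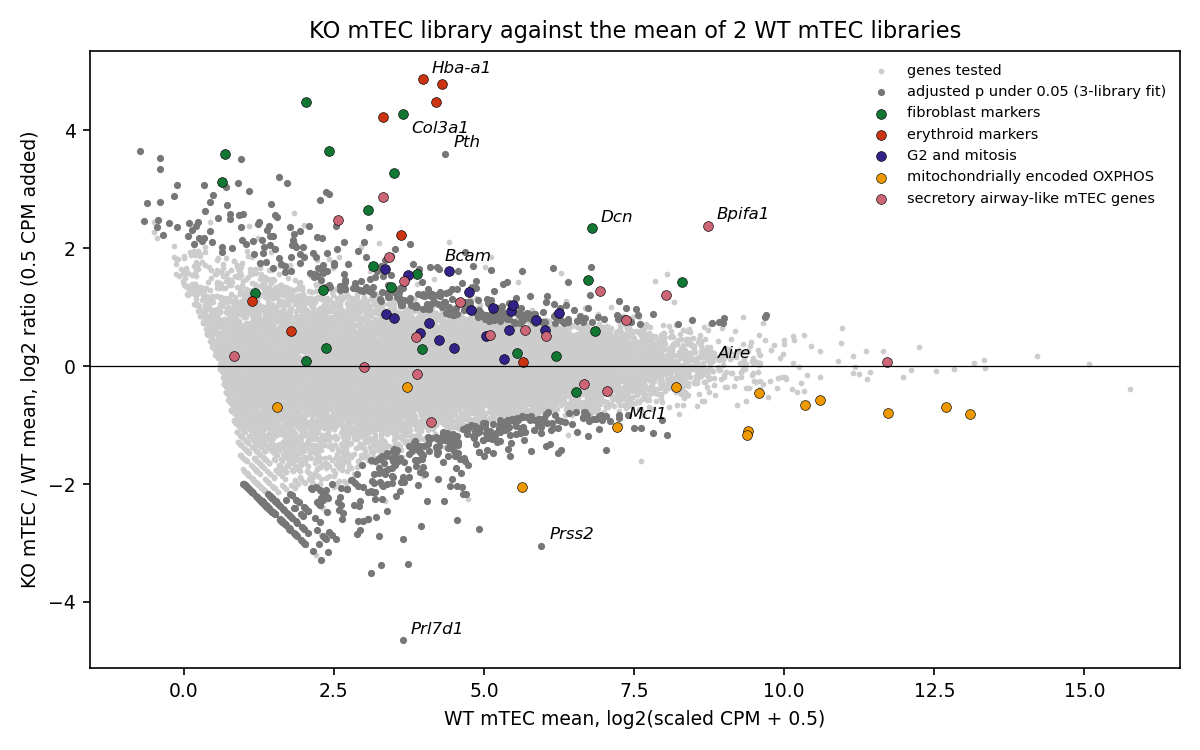
Each point is 1 of 17608 genes: the x axis is the WT mean as log2(scaled CPM + 0.5) and the y axis the log2 ratio of the KO library to that mean with 0.5 CPM added. Dark grey marks the 822 genes called in the 3-library fit and colours mark members of 5 gene lists; fibroblast and haemoglobin genes are among the highest points, Prl7d1 and Prss2 lie far below 0, and Aire lies near 0.

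Mcl1 RNA was lower in the KO library but was retained. Mcl1 (GRCm38 chr3:95656944-95663179) had 2049 and 3851 counts in the WT libraries and 871 in the KO library, or 109.8, 197.5 and 76.9 scaled CPM. The KO level was 50.02% of the WT mean and lay below both WT libraries, which were themselves further apart from each other than the KO library was from WT 1. Its log2 fold change was -1.0 ± 0.35 (SE) with an adjusted p of 0.152. The log2 fold change was -1.36 without WT 1 and -0.52 without WT 2. The counts are per gene, so reads from any undeleted part of Mcl1, and RNA from cells that kept the gene, are part of this level; their shares were not tested.

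No member of the BCL-2 family passed the test, and 3 pro-survival members other than Mcl1 lay close to their WT levels. Bcl2l1, which encodes BCL-XL, was at 126.0, 118.4 and 125.8 scaled CPM. Bcl2 was at 51.7, 43.4 and 51.0, and Bcl2l2, which encodes BCL-W, at 23.6, 23.3 and 21.8. In none of these was the KO library far from the WT pair. The 3 measured A1 genes lay above both WT libraries: Bcl2a1b was at 125.7, 128.1 and 174.5, with a log2 fold change of 0.46 ± 0.19 and an adjusted p of 0.17. Bcl2a1a and Bcl2a1d were at 132% and 131% of their WT means. These A1 copies are near-identical, so how reads were divided among them is uncertain. Over the 7 pro-survival genes tested the median log2 fold change was 0.10, against -0.01 over all genes tested.

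Among the 11 pro-death members, 5 lay above both WT libraries, 6 below both, and 0 passed the test. Pmaip1, which encodes the MCL-1 binding protein NOXA, had the largest log2 fold change, 1.01 ± 0.28, from 173.2, 102.2 and 277.5 scaled CPM, with an adjusted p of 0.0795. Bid, whose product is cut by caspase-8 into an activator of BAX and BAK, was at 23.3, 18.5 and 36.4 (adjusted p 0.0776). The effectors Bax and Bak1 were at 101.6, 119.5 and 137.8 and at 4.39, 4.10 and 3.62. Bcl2l11, encoding BIM, was at 17.2, 17.6 and 13.6, and Bbc3, encoding PUMA, at 17.1, 18.2 and 15.1. Both BH3-only genes were thus lower in the KO library than in either WT library, by less than the test required.

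Counts of called genes downstream and upstream of the family are read beside the 4.67% called over all genes tested. Of 12 caspase and apoptosome genes 0 were called: Casp9, the initiator activated on the apoptosome, was at 17.3, 13.8 and 25.8 scaled CPM (adjusted p 0.133). Among 8 enzymes that control MCL-1 protein turnover, 1 was called: Usp9x, a deubiquitinase that stabilises MCL-1, fell from 44.8 and 38.3 to 19.8 (log2 fold change -1.07 ± 0.24, adjusted p 0.0307). Huwe1, an E3 ligase for MCL-1, was at 151.6, 149.1 and 119.6. Of 22 p53 targets, 1 was called, Ei24, at 48.6, 45.4 and 87.9, and the p53 target Cdkn1a lay between the WT libraries at 381.9, 242.9 and 295.8.

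**Figure D2:**
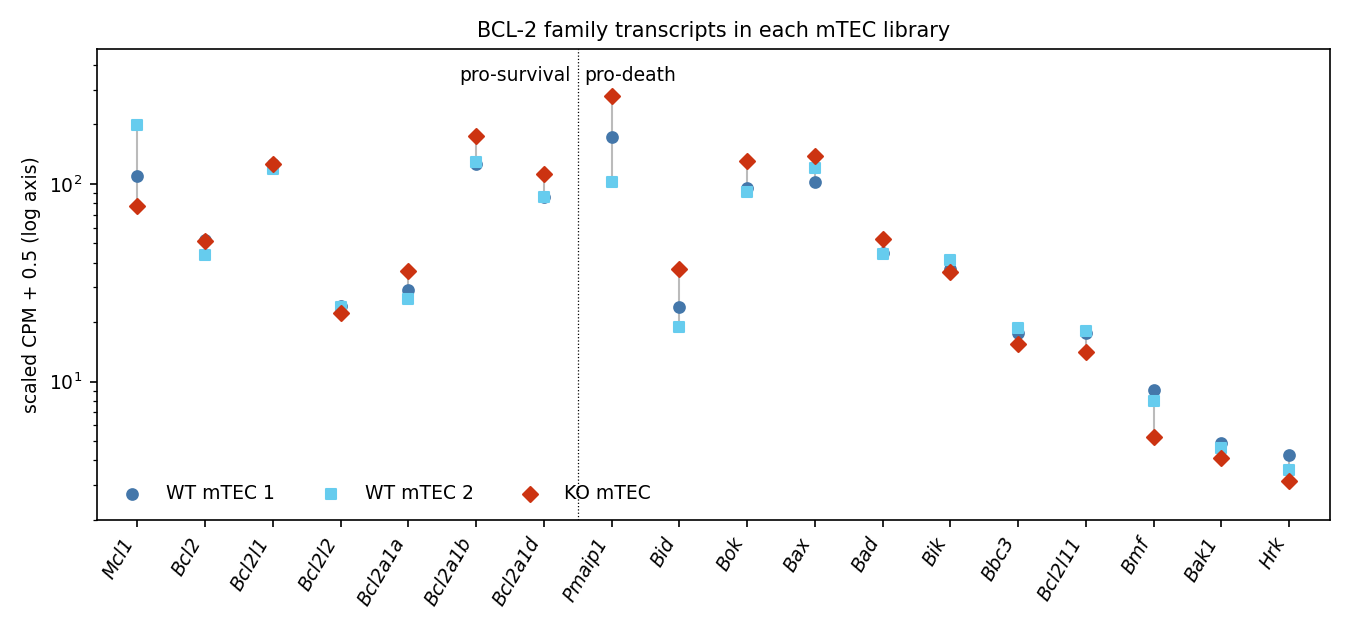
Scaled CPM plus 0.5 on a log axis for 18 BCL-2 family genes in each of the 3 mTEC libraries; grey lines join the libraries of a gene. Mcl1 is lowest in the KO library at 76.9 scaled CPM, and Pmaip1 and Bid are highest there, but none of the 18 passed the test.

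Genes that define mTECs were present near their WT levels in the KO library. Epcam, the epithelial surface marker, was at 1160, 1104 and 1177 scaled CPM, and Foxn1, the thymic epithelial master regulator, at 62.4, 64.9 and 76.2. Aire was at 329.7, 537.3 and 445.9, and Fezf2, a second regulator of self-antigen genes, at 342.2, 409.5 and 378.2, so that the KO library lay between the WT libraries for both. Of 22 mature mTEC genes, 0 were called and the median log2 fold change was 0.00. Tnfrsf11a, the receptor for RANK ligand, was at 223.6, 233.4 and 213.7, and the costimulatory gene Cd80 at 31.6, 35.1 and 27.1. The invariant chain gene Cd74 and the class II gene H2-Aa were above both WT libraries without passing the test, H2-Aa at 4495, 5180 and 6091. Of 12 genes of MHC class II presentation and 17 of MHC class I presentation, 0 were called.

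Markers of less mature and of cortical epithelium were counted beside all genes tested. Among all genes, 4.67% were called, 39.8% lay above both WT libraries and 40.5% below both. Of 17 immature and junctional mTEC genes, 1 rose, 7 lay above both WT libraries and 7 below both, and the median log2 fold change was -0.08. The called gene was Krt5: this basal keratin of mTECs rose from 430.1 and 461.2 to 740.0 (log2 fold change 0.73 ± 0.18, adjusted p 0.0441). Its partner keratin Krt14 was at 561.5, 593.3 and 871.9 (adjusted p 0.0801), and Krt15, another basal keratin, rose 3.13-fold over the WT mean, from 18.8 and 27.6 to 72.6. Ccl21a, the chemokine of junctional mTECs, lay between the WT libraries at 493.7, 273.5 and 337.3. Of 19 cortical epithelial markers, 4 rose: Ackr4, a chemokine scavenger, Psmb11, the thymoproteasome subunit, the protease gene Prss16, and Krt8. Psmb11 was at 12.5, 9.85 and 25.9 (log2 fold change 1.21 ± 0.28, adjusted p 0.0357) and Prss16 at 55.0, 42.6 and 90.5. Of the 19, 12 lay above both WT libraries and 3 below both, and the median log2 fold change was 0.45. Bmp4, a growth factor of the list, was at 1.02, 1.23 and 5.29 (adjusted p 0.053), and Ly75, an endocytic receptor, at 34.7, 26.1 and 15.7 (adjusted p 0.0676). Ccl25, a chemokine for T cell progenitors, lay between the WT libraries at 632.5, 676.2 and 670.4.

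Bcam, the basal cell adhesion molecule and a receptor for laminin, rose from 19.2 and 16.9 scaled CPM to 58.9. The log2 fold change was 1.71 ± 0.22 with an adjusted p of 0.00233. Lamc1, the laminin gamma-1 chain, rose with it, from 15.5 and 13.0 to 43.7. These were the 2 genes called among 20 basement membrane components and receptors, whose median log2 fold change was 0.07.

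Genes of fibroblasts and their matrix gave the most called increases of the 62 gene lists examined. Of 22 fibroblast markers, 12 rose, 0 fell, and 13 lay at least 2-fold above both WT libraries. Over all genes tested, 2.16% were called higher and 2.86% lay at least 2-fold above both. The median log2 fold change of the markers was 1.46. Dcn, which encodes the collagen-binding proteoglycan decorin, rose from 125.4 and 96.2 to 561.9 (log2 fold change 2.34 ± 0.20, adjusted p 0.000172). Col3a1, the chain of type III collagen, rose from 15.3 and 8.72 to 243.5 (4.34 ± 0.29, adjusted p 0.000229). The type I collagen chains Col1a1 and Col1a2 were at 8.15, 13.4 and 108.5 and at 5.31, 1.90 and 91.4. For all 4 genes the KO library stood far outside the WT pair. Pdgfra, the receptor that marks fibroblasts, was at 1.39, 0.72 and 13.1 (log2 fold change 3.62 ± 0.50, adjusted p 0.00364).

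In the proteoglycan family to which decorin belongs, 11 of 12 genes lay above both WT libraries, against 39.8% of all genes. Of the 12 small leucine-rich proteoglycan genes, 6 rose: Lum, Bgn, Ogn, Prelp, Dcn and Ecm2. Lum, encoding lumican, was at 6.06, 3.59 and 66.5, and Bgn, encoding biglycan, at 4.93, 4.72 and 39.9. The other 6 did not pass the test; Aspn, encoding asporin, was at 5.73, 12.8 and 22.3 (adjusted p 0.117), and Epyc, encoding epiphycan, at 15.3, 15.1 and 15.4. Not every fibroblast marker was higher. Col6a1 was lower in the KO library than in both WT libraries, at 94.9, 88.9 and 67.9 (adjusted p 0.206), and Thy1 and Pdgfrb lay close to the WT pair, Pdgfrb at 12.4, 17.9 and 18.6. The summed level of the 22 markers was 995, 925 and 2818 scaled CPM, and no marker was at 0. Whether these transcripts came from fibroblasts in the pellet or from epithelial cells was not tested.

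The promoter of Col1a2, among the largest called increases, is shown with those of Bpifa1, Cdc20 and Bub1b, genes of the groups described next. Each sequence is the 250 bases before the RefSeq start on GRCm38.p6, read 5′ to 3′ on the gene's strand. Capitals mark 3 motifs searched on both strands: the CCAAT box (CCAAT or ATTGG), the cell cycle homology region, CHR (TTTGAA or TTCAAA, searched for the cell cycle genes), and the TATA box (TATAAA or TTTATA, searched for the others).
Col1a2, chr6:4505368-4505617, plus strand: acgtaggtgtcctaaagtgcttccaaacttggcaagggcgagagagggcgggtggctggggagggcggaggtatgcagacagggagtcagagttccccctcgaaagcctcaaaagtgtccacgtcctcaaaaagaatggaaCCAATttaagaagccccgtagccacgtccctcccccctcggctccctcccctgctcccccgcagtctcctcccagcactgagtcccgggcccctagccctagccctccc
Bpifa1, chr2:154142630-154142879, plus strand: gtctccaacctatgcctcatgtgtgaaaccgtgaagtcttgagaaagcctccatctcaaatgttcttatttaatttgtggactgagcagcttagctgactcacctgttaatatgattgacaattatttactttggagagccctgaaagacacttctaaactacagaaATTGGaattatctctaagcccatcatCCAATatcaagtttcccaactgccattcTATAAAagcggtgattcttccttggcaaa
Cdc20, chr4:118437344-118437593, minus strand: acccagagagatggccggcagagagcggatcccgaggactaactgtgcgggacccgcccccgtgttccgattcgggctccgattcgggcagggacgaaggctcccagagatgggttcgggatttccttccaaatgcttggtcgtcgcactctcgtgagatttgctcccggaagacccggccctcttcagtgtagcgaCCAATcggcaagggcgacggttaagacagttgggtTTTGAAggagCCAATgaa
Bub1b, chr2:118597961-118598210, plus strand: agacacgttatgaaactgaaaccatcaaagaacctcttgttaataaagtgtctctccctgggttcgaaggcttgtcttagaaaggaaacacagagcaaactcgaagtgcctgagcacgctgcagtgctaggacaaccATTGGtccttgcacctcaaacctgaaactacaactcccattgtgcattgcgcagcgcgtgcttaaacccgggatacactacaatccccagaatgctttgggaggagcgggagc
Over 32851 RefSeq promoters of the same length, 33.8% held a CCAAT box, 16.0% a CHR and 12.4% a TATA box. The Col1a2 window held 1 CCAAT box, 109 bases before the start, and the Bpifa1 window 2 CCAAT boxes and a TATA box 29 bases before the start. The windows of Mcl1, Scgb3a1, Col3a1 and Birc5 were also searched and are not printed. Mcl1 and Scgb3a1 held 0 CCAAT boxes and 0 TATA boxes, and Birc5 held 0 CCAAT boxes and 0 CHR. Col3a1 held 0 CCAAT boxes and 1 TATA box. Of 15 fibroblast markers with a promoter in the RefSeq table, 33.3% held a CCAAT box and 13.3% a TATA box. Of 13 such airway secretory genes, 15.4% held a CCAAT box and 23.1% a TATA box. A match describes these letters only.

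Markers of blood and vessels were also higher in the KO library, with wide spread in the WT pair. Alas2, the erythroid enzyme of haem synthesis, rose from 12.3 and 11.2 to 56.7 (log2 fold change 2.27 ± 0.23, adjusted p 0.000383). The globin genes did not pass the test although the KO library stood far above: Hba-a1 was at 21.7, 8.92 and 464.3 (4.92 ± 0.66, adjusted p 0.083). Hbb-bs was at 27.8, 8.05 and 409.1 (adjusted p 0.324). Alpha-globin genes are near-identical copies, as are the beta-globin genes, so the split of reads within each pair is uncertain. The 10 erythroid genes found summed to 155, 103 and 1720 scaled CPM. Klf1, the erythroid transcription factor, was at 2.95, 2.92 and 4.68.

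Of 16 endothelial markers, 2 rose, Eng and Plvap, and 15 lay above both WT libraries, against 39.8% of all genes. Eng, the TGF-beta co-receptor endoglin, was at 5.63, 2.67 and 20.6, and Plvap, a component of fenestrated endothelium, at 20.6, 18.9 and 42.8. The WT libraries differed from each other here: Pecam1 was at 22.2, 5.23 and 30.9 and Cdh5 at 4.82, 0.41 and 7.41. The endothelial median log2 fold change was 1.33 with both WT libraries, 2.75 without WT 1 and 0.64 without WT 2. Immune marker lists differed in direction. Of 18 thymocyte markers tested 0 were called. Cd3e was at 1.98, 2.00 and 5.74 and Ptprc at 8.20, 12.1 and 12.3. The list summed to 112, 129 and 160 scaled CPM, with Rag2, too low to be tested, at 0 in the KO library. Of 18 dendritic cell and macrophage markers tested 0 were called, and the list summed to 886, 1148 and 763. Mertk lay at least 2-fold above both WT libraries, at 0.59, 0.21 and 2.74, and Adgre1 at least 2-fold below both, at 4.13, 8.41 and 1.59. Clec9a and Siglech, too low to be tested, had no count in the KO library, and Clec9a had 12 and 9 counts in the WT libraries. Of 9 B and plasma cell markers tested, Ms4a1 alone was called, at 1.39, 3.33 and 16.4. Thymocyte markers lay above both WT libraries in 14 cases and below both in 2, with a median log2 fold change of 0.455. B and plasma cell markers lay above both in 8 cases and below both in 1, with a median of 0.816. For dendritic cell and macrophage markers the numbers were 7 and 6, with a median of -0.031.

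**Figure D3:**
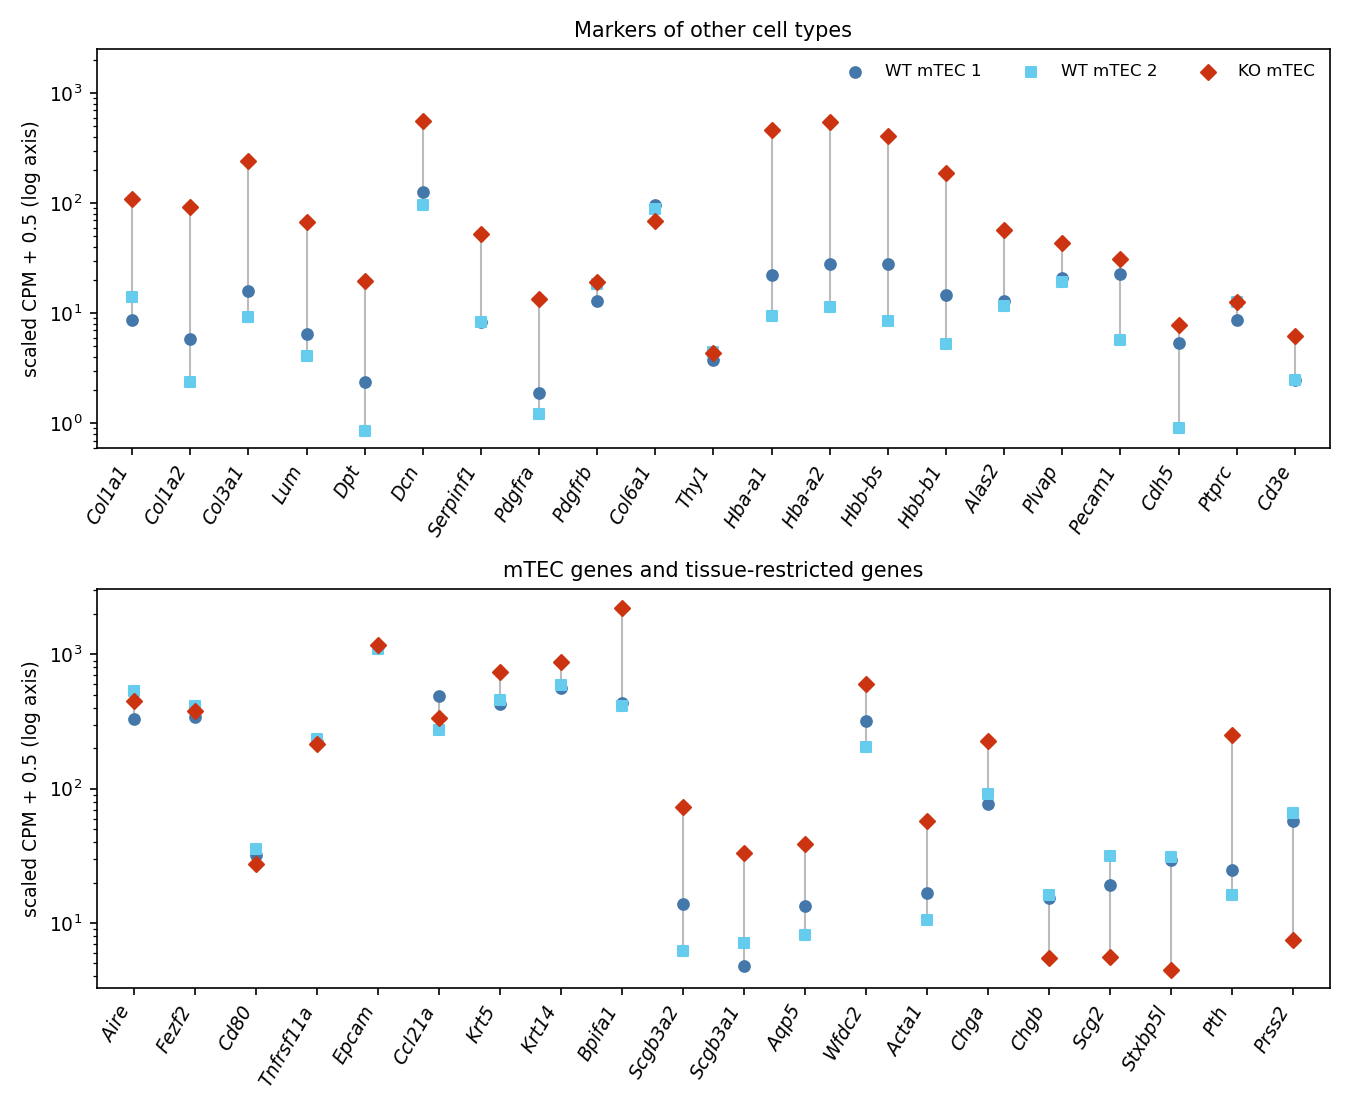
Scaled CPM plus 0.5 on log axes for markers of other cell types (top) and for mTEC and tissue-restricted genes (bottom) in each mTEC library. In the top panel the KO library stands above both WT libraries for the collagens, the globins and Alas2 but not for Col6a1 or Thy1; in the bottom panel Aire, Fezf2 and Ccl21a lie between the WT libraries while Bpifa1 and Pth lie above and Prss2, Scg2 and Stxbp5l below.

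Airway secretory genes, which mTECs transcribe as self antigens or in airway-like subsets, rose in part. Bpifa1, an antimicrobial protein of the upper airway whose promoter is printed above, was at 437.6, 414.4 and 2230 scaled CPM. The WT libraries lay close together and the KO library was 5.24-fold above their mean (log2 fold change 2.39 ± 0.18, adjusted p 8.37e-05). The secretoglobins Scgb3a2 and Scgb3a1 rose from 13.3 and 5.74 to 72.8 and from 4.29 and 6.62 to 32.9. Wfdc2, a protease inhibitor of airway epithelium, rose from 318.9 and 204.9 to 605.8, and Aqp5, a water channel of secretory glands, from 12.9 and 7.59 to 38.3. In all, 6 of 20 genes of this list rose, against 2.16% of all genes, 0 fell, and the median log2 fold change was 0.58. Other members did not follow: Reg3g, an antimicrobial lectin, was at 4028, 2683 and 3545, Scgb1a1 at 46.8, 54.6 and 77.7, and Bpifa2, a salivary relative of Bpifa1, at 7.13, 7.95 and 7.50.

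Endocrine genes moved in both directions. Pth, which encodes parathyroid hormone, rose from 24.4 and 15.6 to 249.3 (log2 fold change 3.64 ± 0.24, adjusted p 8.37e-05). Chga, encoding chromogranin A, rose from 76.2 and 91.2 to 227.2 (1.44 ± 0.20, adjusted p 0.00333). Its relatives in secretory granules fell: Chgb was at 14.8, 15.6 and 5.03 (-1.60 ± 0.35, adjusted p 0.0282) and Scg2 at 18.5, 30.9 and 5.12 (-2.27 ± 0.39, adjusted p 0.0128). Stxbp5l, a regulator of vesicle release, fell from 29.1 and 30.5 to 3.97 (-2.91 ± 0.32, adjusted p 0.00072). Of 19 neuroendocrine genes tested, 1 rose and 3 fell, and the median log2 fold change was 0.05. Calcb, Sst and Npy stayed near the WT pair, Sst at 19.5, 34.5 and 28.3. Pth is not in that list. Of 9 parathyroid and thyroid markers tested, 2 rose, Pth and Chga, against 2.16% of all genes, and 6 lay above both WT libraries. The list summed to 128, 134 and 509 scaled CPM. Its member Casr lay between the WT libraries at 8.36, 10.2 and 10.1. Whether Pth transcripts came from mTECs or from parathyroid cells in the pellet was not tested.

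Counts for other tissue-like programmes are read beside those over all genes tested. There 4.67% were called, 39.8% lay above both WT libraries and 40.5% below both. Of 14 muscle-like genes tested, 12 lay above both WT libraries and 0 below both, with a median log2 fold change of 0.56, and 2 rose: Acta1, skeletal muscle actin, from 16.3 and 10.1 to 57.1, and Mylpf, a fast muscle myosin light chain, from 28.6 and 30.0 to 64.2. The myogenic regulator Myog was at 18.5, 15.4 and 23.3. Of 24 keratinocyte-like genes, Krt1 and Krtdap rose, 16 lay above both WT libraries and 4 below both, and the median was 0.40. Of 19 tuft cell genes and 14 ciliated cell genes, 0 were called, with median log2 fold changes of -0.07 and -0.48. Of 13 ionocyte-like genes, Foxi2, a forkhead factor, was called lower, with 38 and 41 counts in the WT libraries and 0 in the KO library, which is at least 7.82-fold lower against a floor of 3 counts in the KO library.

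Genes of mitosis were higher as a group. All 20 genes of the G2 and mitosis list lay above both WT libraries, against 39.8% of all genes, and 9 of the 20 rose; the median log2 fold change was 0.88. Bub1b, a kinase of the spindle checkpoint, was at 9.70, 9.80 and 31.8 scaled CPM (log2 fold change 1.70 ± 0.27, adjusted p 0.0076). Cdc20, the activator of the anaphase-promoting complex, was at 15.2, 26.7 and 65.5 (1.64 ± 0.30, adjusted p 0.0209), and Birc5, the passenger protein survivin, at 23.2, 29.3 and 63.4. Kif20a, Tpx2, Ccna2, Ube2c, Top2a and Nusap1 also rose. The proliferation marker Mki67 was at 57.5, 70.3 and 98.1 (adjusted p 0.0944), and Ccnb1 at 19.5, 24.6 and 27.3. Of 20 members, 16 had a promoter in the RefSeq table; 14 of these (87.5%) held a CCAAT box and 7 (43.8%) a CHR. In the windows printed above, Cdc20 had a CHR 18 bases before the start between 2 CCAAT boxes at 53 and 8 bases, and Bub1b had 1 CCAAT box, 113 bases before the start, and no CHR.

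In the S phase list, 4 of 18 genes rose, against 2.16% of all genes, and the median log2 fold change was 0.76. Rrm2, a subunit of ribonucleotide reductase, was at 23.3, 34.1 and 72.6, and Mcm5, a subunit of the replicative helicase, at 19.6, 18.0 and 45.4. Tyms and Fen1 also rose. The replication clamp Pcna was at 53.5, 52.9 and 60.5, and the licensing factor Cdt1 was lower, at 6.97, 10.9 and 5.38, without passing the test. WT 1 was below WT 2 for most of the cycle genes named here, and the G2 and mitosis list summed to 559, 688 and 1131 scaled CPM.

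Transcripts of the mitochondrial genome were lower. All 13 protein-coding genes of mitochondrial DNA lay below both WT libraries, against 40.5% of all genes, and 4 fell: ATP8, COX3, ATP6 and ND1. COX3, a core subunit of cytochrome c oxidase, was at 696.8, 636.9 and 297.2 scaled CPM (log2 fold change -1.17 ± 0.20, adjusted p 0.0119). ATP8, a subunit of the ATP synthase, was at 52.7, 45.7 and 11.5 (-2.10 ± 0.25, adjusted p 0.00162). ATP8 (MT:7766-7969) and ATP6 (MT:7927-8607) overlap, so reads in the shared bases cannot be told apart. The 13 genes summed to 25734, 22522 and 14395 scaled CPM, with a median log2 fold change of -0.79, and all mitochondrial counts made up 3.34%, 3.07% and 2.14% of the totals.

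Nuclear genes of the same respiratory complexes did not follow. Of 26, 21 lay above both WT libraries and 2 rose, both subunits of the catalytic head of the ATP synthase: Atp5b was at 855.2, 785.1 and 1468, and Atp5a1 at 512.3, 507.3 and 898.0. The median log2 fold change of the 26 genes was 0.23. Among all genes tested, 39.8% lay above both WT libraries. Cytosolic ribosomal protein genes lay above both WT libraries in 22 of 22 cases, against the same 39.8%, with a median of 0.55. Rpl32, Rplp1 and Rplp2 rose, Rpl32 from 97.0 and 120.4 to 252.6. The mitochondrial fusion and fission list had 0 calls among 12 genes.

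Immediate-early genes, which respond within minutes to stimulation or to tissue handling, were above both WT libraries in 17 of 21 tested cases. The share over all genes was 39.8%, and 1 gene of the list passed the test. Ier2 rose from 179.8 and 146.4 to 286.4 (log2 fold change 0.81 ± 0.20, adjusted p 0.0407). Fos was at 349.7, 110.1 and 630.7 and Jun at 368.5, 157.5 and 778.1, so the WT libraries differed from each other more than 2-fold for both. Of the integrated stress response list, Psat1, an enzyme of serine synthesis, alone rose among 19 genes, from 30.4 and 23.4 to 68.5. Of 26 interferon response genes, 20 NF-kB and inflammatory genes and 15 genes of the unfolded protein response, 0 were called.

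**Figure D4:**
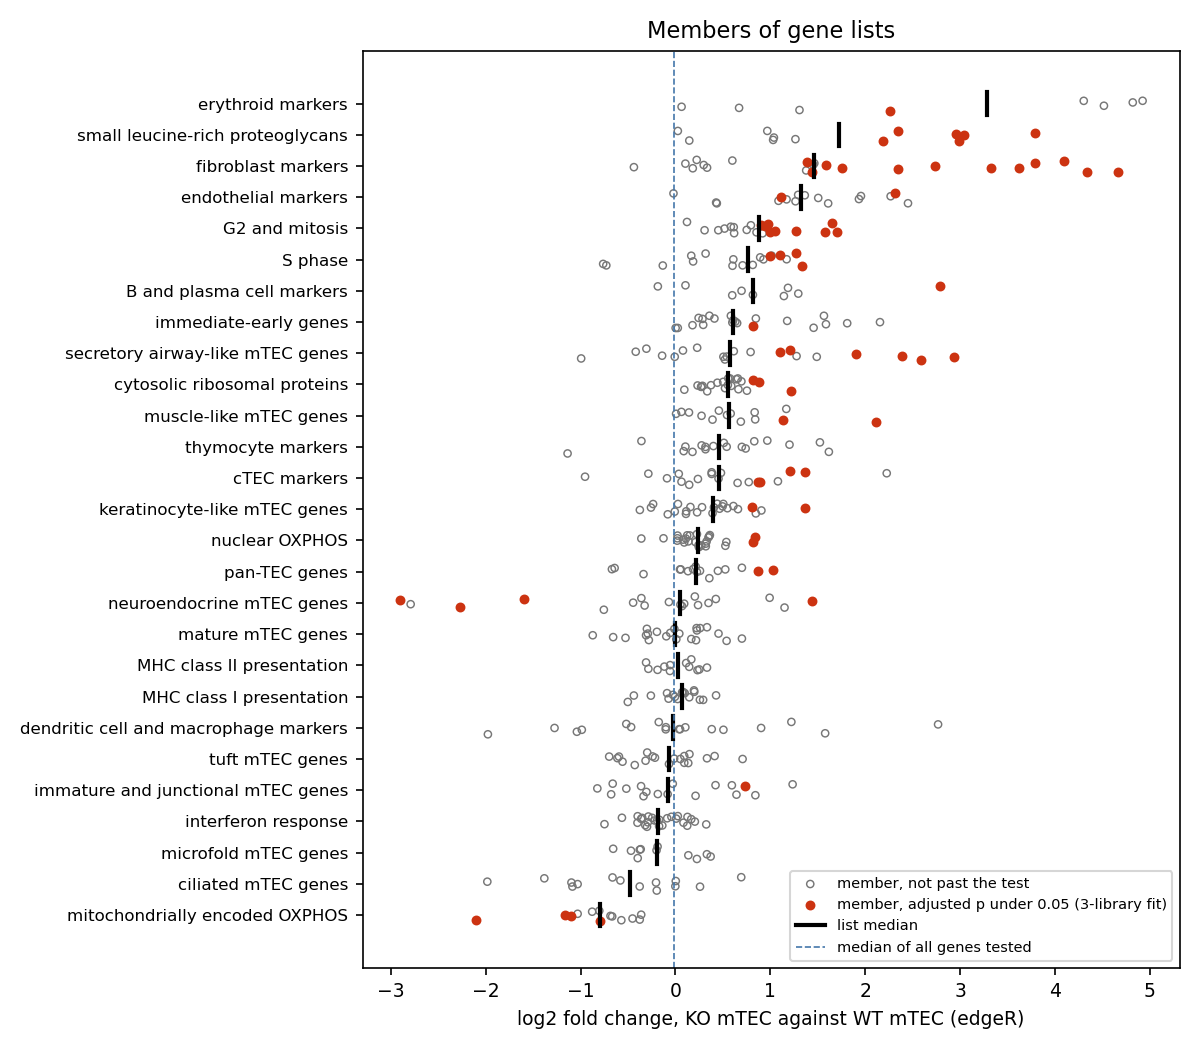
Each circle is the edgeR log2 fold change of 1 list member, KO against WT mTEC; filled circles passed the test in the 3-library fit, black bars are list medians and the dashed line is the median of all genes tested, -0.01. Fibroblast, proteoglycan, G2 and mitosis and S phase lists lie to the right, the mitochondrially encoded list to the left at a median of -0.79, and mature mTEC genes at 0.00.

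Among the largest decreases of well-detected genes, ATP8, Stxbp5l and Prl2a1 are described with their groups, and the others had varied roles. Prss2, a pancreatic trypsinogen, fell from 57.1 and 65.2 to 6.97 scaled CPM (log2 fold change -3.13 ± 0.26, adjusted p 0.000148). Lrrn3, a leucine-rich repeat membrane protein of neurons, fell from 10.5 and 15.0 to 0.79, and Akr1c21, a hydroxysteroid dehydrogenase, to 1.15, which was 9.51% of the WT mean. The KO library stood below both WT libraries by more than the WT libraries differed for all 3. Gbp11, a guanylate-binding protein, fell from 23.8 and 22.1 to 3.35. Crp, the liver acute-phase protein, fell less, from 69.3 and 79.7 to 26.5. Slc17a4, Gpr137b, Xpnpep3, Sec14l4 and Ankrd42 also fell, to between 18.3% and 22.8% of the WT mean. On the other side, Gper1, a membrane oestrogen receptor, rose from 1.29 and 1.59 to 21.6, and Itih5 and Dpep1 rose 10.9-fold and 10.1-fold over the WT mean. Some called increases were larger but started from few counts. Ntrk2 had 0, 4 and 80 counts, C7 5, 5 and 94, Rasgef1c 3, 3 and 45, and Clec3b 7, 8 and 69.

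A further set of the largest called decreases had no count in the KO library. Of all genes tested, 98 had counts in both WT libraries and 0 in the KO library. The reverse count, 0, is limited by the filter on the mean of the 3 libraries, which a gene seen in the KO library alone passes only at a higher level. Over all genes with no filter, the numbers were 1845 and 165, and 1525 and 228 after thinning the WT libraries to the KO total. Prl7d1, a placental prolactin-family hormone on chr13:27708998-27716737, had 233 and 224 counts in the WT libraries and 0 in the KO library, at least 45.3-fold lower against a floor of 3 counts. Tas2r126, a bitter taste receptor, had 60, 60 and 0 counts (at least 11.9-fold lower), and Apela, a hormone of early embryos, 43, 74 and 0 (at least 11.5-fold). Adam7, a sperm-maturation protein of the epididymis, had 57, 75 and 0. Crtam, Lat2, Slc2a3, Slc38a5, Fam216b and Zfp874b also had 0 counts in the KO library and at least 40 in each WT library. Low counts in a single amplified library limit these values, and the floors cover counting error only.

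Because Prl7d1 led the decreases, the placental prolactin family and the placental cathepsins, gene families on chromosome 13, were examined after their values were seen. The 25 prolactin-family genes held 942, 831 and 120 counts, or 50.5, 42.6 and 10.6 scaled CPM, and the summed KO level was 22.7% of the WT mean on that scale. A count was present for 21, 23 and 9 of the 25. Of the 7 family members tested, Prl7d1, Prl2c5 and Prl2a1 fell; Prl2c5 had 174, 179 and 5 counts, and its near-identical Prl2c copies make the split of reads uncertain. Not all members were lower: Prl8a2 had 9, 21 and 50 counts, Prl2c2 lay between the WT libraries in scaled CPM with 15, 23 and 13 counts, and the untested Prl3c1, Prl3d3 and Prl4a1 had 6, 5 and 7 counts in the KO library against at most 7 in either WT library. The 8 cathepsin genes held 148, 257 and 29 counts, 24.2% of the WT mean on the scaled CPM scale. Ctsj fell from 40 and 111 counts to 0 and Ctsq from 42 and 48 to 0, while Ctsr had 4, 5 and 23 counts.

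**Figure D5:**
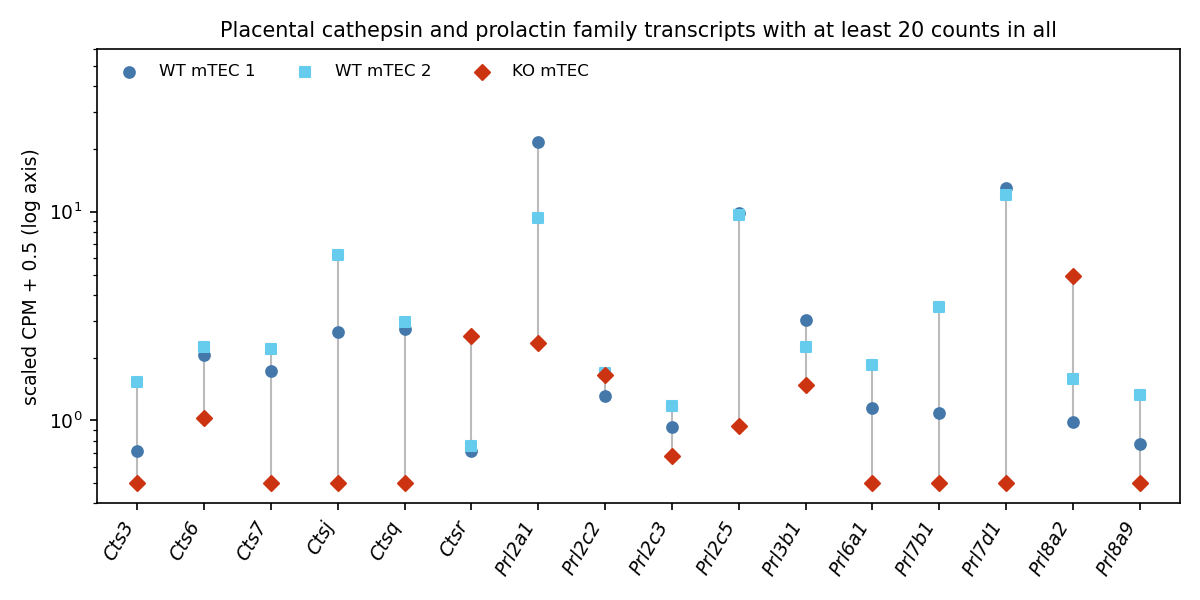
Scaled CPM plus 0.5 on a log axis for the placental cathepsin and prolactin-family genes with at least 20 counts in all 3 libraries together; points at 0.5 have no count. The KO library lies below both WT libraries for most genes, with Prl7d1 and Ctsj at 0, and above both for Ctsr and Prl8a2.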

How the data were processed

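Polyadenylated RNA of 3 mTEC libraries was measured. The deposited files give whole-number counts of reads per Entrez gene, made by the authors with featureCounts on mm10, per the submitters' processing notes; aligner, versions, annotation and strand setting: not given in the sources used here. Not used was a table of the whole series, of which 8 columns match no label. Symbols and coordinates came from RefSeq on GRCm38.p6, the assembly of mm10 (25275 of 27179 IDs matched, 92.99%; 447 tested genes have no symbol and are not named).

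Genes with a mean CPM of at least 1 over the 3 libraries were tested with edgeR 4.0.16 in R 4.3.3 (robust quasi-likelihood test, TMM, two-sided, Benjamini-Hochberg over all genes, threshold 0.05). Each SE is |log2 fold change| over the root of edgeR's F. P-values of the 3-library fit rest on the spread between the 2 WT libraries, because the lone KO library adds none. That spread was moderated across genes, with a median of 11.5 prior degrees of freedom. The labels do not say which animals each library came from. The pipeline was tested on simulated data. No molecular identifiers were used, so counts are not independent molecules. Alternatives were other scalings, filters, thinning, DESeq2 1.42.0, limma 3.58.1 (voom), a non-robust fit, all 8 libraries, and each WT library left out. Named genes were Mcl1, Bcam, Dcn and Bpifa1, both BCL-2 lists, identity genes, up to 12 called genes per direction by log2 fold change, the 12 per direction farthest from the nearer WT library at a mean CPM of at least 8, and up to 4 per list and direction at least 2-fold beyond both. Other list members named were chosen after their values were seen, as examples. Members and lists were chosen with earlier results of these data known. Floors are 3 counts in the KO library. Some results are not reported here.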

Additional observations from a re-analysis of the deposited data

How the results depend on the processing

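The direction of all 822 calls was kept under every alternative in which the gene was tested. For all 822 the KO library lay outside both WT libraries, so leaving out a WT library could hardly change a direction. The number of calls depended on the setting. Higher and lower calls numbered 380 and 442; lower calls moved to 257 with RLE size factors, 755 with library totals only and 213 with limma-voom. Without a filter they were 761 and 996, with the WT libraries thinned to the KO total 715 and 862, and with DESeq2 226 and 215. The fit to all 8 libraries called 0 in either direction, and without either WT library it also called 0 (range 0 to 0), with 1434 genes at an unadjusted p under 0.05 with all libraries; DESeq2 on the 3 libraries called the numbers above. Its common dispersion was 0.120, against 0.0367 in the 3-library fit. The cause of the loss was not tested.

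Genes at least 2-fold above and below both WT libraries numbered 504 and 879. They were 161 and 204 at a mean CPM of at least 8 and 73 and 132 at a 4-fold distance, which keep fewer genes by construction. With 1 WT library left out, the numbers ranged from 852 to 1046 above and from 1203 to 1440 below: 852 and 1440 without WT 1, 1046 and 1203 without WT 2. Mcl1 was lower in every setting, with log2 fold changes from -1.36 to -0.52 when a WT library was left out of the 3 and from -1.37 to -0.52 when it was left out of the 8, and it passed the test in none. No named gene that was called reversed direction, but some list medians near 0 changed sign across settings. The neuroendocrine median of 0.052 ranged from -0.295 to 0.313. The tuft median of -0.068 ranged from -0.215 to 0.058, and the immature and junctional mTEC median of -0.082 from -0.156 to 0.034. The fibroblast, G2 and mitosis and mitochondrially encoded medians kept their sign. Of the 822 calls, 423 were also made by DESeq2, 491 by limma-voom, 524 with RLE scaling and 0 by the 8-library fit. Of the 81 named genes called, selected in part for large changes, DESeq2 lost 7, limma-voom 5, no filter 2, RLE scaling 1, thinning 1 and the 8-library fit 81. With a single WT library left, the 3-library comparison has no residual degrees of freedom and gives values only. No paired analysis was possible because the KO library carries no replicate number. The KO depth of 11516780 counts limits calls of genes with few counts.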

Other observations

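Xist, the RNA of the inactive X chromosome, and Y-linked genes were both present in all 3 libraries. Xist was at 3.97, 385.7 and 63.3 scaled CPM in WT 1, WT 2 and KO, and Ddx3y at 144.2, 43.2 and 80.5. Neither passed edgeR's test (adjusted p 0.89 and 0.949). The labels give no sex, and whether animals of both sexes were pooled was not tested.

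Genes at least 2-fold below both WT libraries had a median of 3.07 scaled CPM over the 3 libraries, against 4.998 for genes at least 2-fold above. Their median lengths were 2672 and 2346 bases, against 2614 over all genes tested.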
